A study of Caenorhabditis elegans with 33 samples.

Results

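The 40 genes described here are germline and oocyte genes of the nematode Caenorhabditis elegans, chosen by their names in the deposited count table. They encode proteins of P granules, of meiotic chromosomes, of the oocyte cytoplasm and of the eggshell. All 40 were found among the 17907 genes of the table, and all 40 passed the filter on low counts. They fall into 9 genes of P granules and piRNA, 8 regulators of stem cells and of the entry into meiosis, 11 oocyte RNA-binding proteins, 7 genes of the eggshell and egg surface, and 5 genes of meiotic chromosomes.

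RNA with poly(A) tails from whole hermaphrodites was sequenced at adult day 2, in 33 libraries of 12 groups. The strains, 4 in number, comprised wild-type N2; mxl-2(tm1516), a mutant of a Max-like partner of Myc-family transcription factors; eat-2(ad465), which feeds slowly and serves to model dietary restriction; and eat-2(ad465);mxl-2(tm1516), called the double mutant below. Their food was HT115(DE3) bacteria with the L4440 plasmid, either empty (EV) or making double-stranded RNA against daf-16, a FOXO transcription factor, or against pha-4, a FOXA transcription factor. Groups of eat-2 had 2 libraries and all other groups 3, every library from a population synchronised on its own. All groups, controls included, were kept at 16 °C as larvae and moved to 20 °C at the L4 stage, when all received 5-fluorodeoxyuridine (FUdR). FUdR blocks thymidylate synthesis and so the DNA synthesis of dividing cells, which in adult worms lie in the germline. There was no group without FUdR, so its own effect on these genes cannot be described.

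In an adult hermaphrodite, germline stem cells divide at the distal end of each gonad arm, enter meiosis as they move away from it, and grow into oocytes at the proximal end. Sperm are made first, in the larva, and the adult then makes oocytes only. P granules are RNA-protein bodies beside germ cell nuclei. Oocytes store messenger RNAs whose translation is held back by RNA-binding proteins until the egg is fertilised, when the eggshell is also built from stored proteins.

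Library totals ran from 20.2 M to 31.5 M counts (median 27.96 M), and the 40 genes together took between 0.663% and 2.62% of them. Levels are given as counts-per-million (CPM) values divided by a scaling factor that was estimated by the trimmed mean of M values (TMM), and, where genes are set beside each other, as the authors' transcripts-per-million (TPM) values, which are relative to transcript length. No gene of the 40 had fewer than 335 counts in any library. Counting error is small at these depths, so that the spread between libraries set the precision.

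The transcripts of the mutated and targeted genes went with the labels for mxl-2 and did not separate the groups in every strain for eat-2, daf-16 and pha-4. For pha-4 they also went against the labels of the double mutant. The mxl-2 transcript stood at 62.3 ± 8.45 CPM (SD, n = 3) in N2 on EV, at 4.98 ± 0.47 in mxl-2 on EV and at 3.19 ± 0.43 in the double mutant on EV. The eat-2 transcript had 22 to 31 counts per library in N2 on EV and 1 to 3 in eat-2 on EV. It was also low in mxl-2, which is not labelled with an eat-2 mutation, with 3 to 15 counts on EV and 2 to 7 on daf-16 RNAi. These overlap the 5 to 10 counts of eat-2 on pha-4 RNAi, so that this transcript does not tell the genotypes apart in every group. The daf-16 transcript was at 155 ± 17.7 CPM on EV and 73.5 ± 10.7 on daf-16 RNAi in N2, and at 95.2 ± 14.3 and 43.9 ± 2.95 in the double mutant. In eat-2 it was at 44.9 and 115.5 CPM on EV and at 32.4 and 69.6 on daf-16 RNAi, so that these groups overlapped. The pha-4 transcript was at 14.01 ± 4.34 CPM in N2 on EV and at 5.07 ± 0.70 on pha-4 RNAi. In mxl-2 it was at 6.01 to 7.68 CPM on pha-4 RNAi and 7.31 to 17.4 on EV, and in eat-2 at 5.10 and 13.6 CPM, against 10.5 and 14.05 on EV. In both strains these groups overlapped. In the double mutant it went against the labels, with 3.83 ± 0.50 CPM in the libraries labelled EV and 10.4 ± 2.54 CPM in those labelled pha-4 RNAi. On daf-16 RNAi, where pha-4 was not targeted, it was at 5.84 ± 1.66 CPM in the double mutant and 15.7 ± 2.75 in N2. A low level in this strain was thus not confined to the libraries labelled EV. Any direction drawn below from the 6 double mutant libraries labelled EV or pha-4 RNAi rests on these labels. The order of the targeted transcript ran against them, and whether they were exchanged was not tested. The libraries of the double mutant are numbered 49 to 57 and those of the other strains 1 to 27. Whether the double mutant was prepared apart is not stated, and strain and preparation cannot be told apart.

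In eat-2, 4 libraries stood apart in the germline and oocyte genes, in opposite directions within 2 groups. The mean log2 CPM over the 40 genes was 8.52 in eat-2 EV replicate 1 and 6.40 in replicate 2. On daf-16 RNAi it was 6.26 in replicate 1 and 8.62 in replicate 2. These are the highest and the lowest values of the whole study, and each of the 2 groups holds one of each kind. The eat-2 animals on pha-4 RNAi lay between them, at 8.04 and 7.69.

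The other strains varied less. The 3 libraries of N2 on EV had mean log2 CPM of 7.47, 8.03 and 7.85, those on daf-16 RNAi 7.83, 8.21 and 7.78, and those on pha-4 RNAi 7.90, 8.12 and 8.15. In mxl-2 the values were 8.33, 8.18 and 8.13 on EV, 8.01, 8.005 and 7.91 on daf-16 RNAi and 8.21, 8.11 and 7.82 on pha-4 RNAi. In the double mutant they were 7.85, 7.49 and 7.87 in the libraries labelled EV and 8.10, 8.31 and 8.37 in those labelled pha-4 RNAi. Its animals on daf-16 RNAi spread more widely, at 6.76, 7.83 and 7.15. The gap within eat-2 on EV, and that within eat-2 on daf-16 RNAi, was wider than the gap between any pair of libraries of N2 and mxl-2. In whole animals, fewer germ cells and less RNA per germ cell cannot be told apart.

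**Figure D1:**
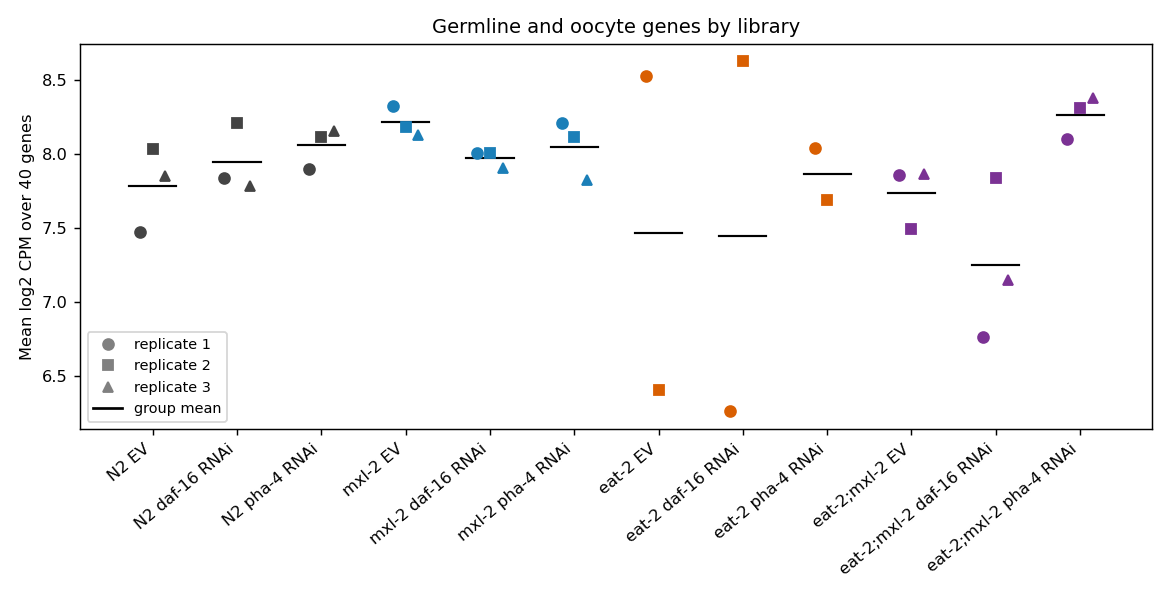
Mean log2 CPM over the 40 germline and oocyte genes (vertical axis) in each of the 33 libraries, by group (horizontal axis), with symbols for replicate numbers, colours for strains and a bar at each group mean. The eat-2 libraries on EV (8.52 and 6.40) and those on daf-16 RNAi (6.26 and 8.62) hold the extremes of the study.

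The split ran through nearly all of the 40 genes. In TMM-scaled CPM, 38 were higher in eat-2 EV replicate 1 than in replicate 2, the exceptions being him-3 and syp-2. In eat-2 on daf-16 RNAi, 39 were higher in replicate 2 than in replicate 1, the exception being syp-2. The exceptions depended on the scaling. In TPM, pgl-2 (34.0 and 36.2) and fbf-2 (10.97 and 11.15) were also lower in EV replicate 1 than in replicate 2. On daf-16 RNAi, him-3 (145.7 and 119.1 TPM) and fbf-2 (14.4 and 11.2) were also lower in replicate 2 than in replicate 1. For 29 of the 40 the lowest of all 33 libraries was eat-2 EV replicate 2 or eat-2 daf-16 RNAi replicate 1, and for 18 these were the 2 lowest. For 26 the highest library was eat-2 EV replicate 1 or eat-2 daf-16 RNAi replicate 2. Shares of all genes with the same order or the same extreme libraries are not given here. Whether the pattern was particular to the 40 genes was not tested. The scaling factor moved with the split: it was 1.46 and 1.56 in the libraries low in these genes and 0.862 and 0.854 in the high ones. Size factors were also taken by the median-ratio method of DESeq2 (relative log expression, RLE). The means were then 8.51, 6.40, 6.27 and 8.63 in the same order as above, and the split was as large. On the authors' TPM values, as log2(TPM + 1), the means were 7.34, 5.60, 5.585 and 7.57, a smaller split. The 40 genes took 2.47% and 0.745% of counts on EV, then 0.663% and 2.62% on daf-16 RNAi. The scaling factors widened the CPM gaps given below beyond those from library totals alone.

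Marker genes of other cells moved with the same 4 libraries. The 6 vitellogenins, yolk proteins made in the intestine, had a mean log2 CPM of 12.39 and 7.87 in the replicates of eat-2 on EV and of 7.32 and 12.63 in those on daf-16 RNAi. The 5 markers of the gonadal sheath, the somatic cover of the gonad, ran the other way, at 3.47 and 4.66 on EV and at 4.82 and 3.63 on daf-16 RNAi. The 31 genes of major sperm proteins also ran the other way, at -2.79 and -0.30 on EV and at -0.66 and -2.97 on daf-16 RNAi. All 4 sperm values lay far below the 3.79 to 4.12 of N2 on EV. The 6 markers of body wall muscle were at 6.58 and 6.87 on EV and at 7.10 and 6.94 on daf-16 RNAi. The 7 measured markers of the early embryo were at 0.56 and 0.66 on EV and at 0.50 and 0.90 on daf-16 RNAi, within or close to the 0.49 to 0.85 of N2 on EV. What part these tissues had in the values of the 40 genes was not tested.

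**Figure D2:**
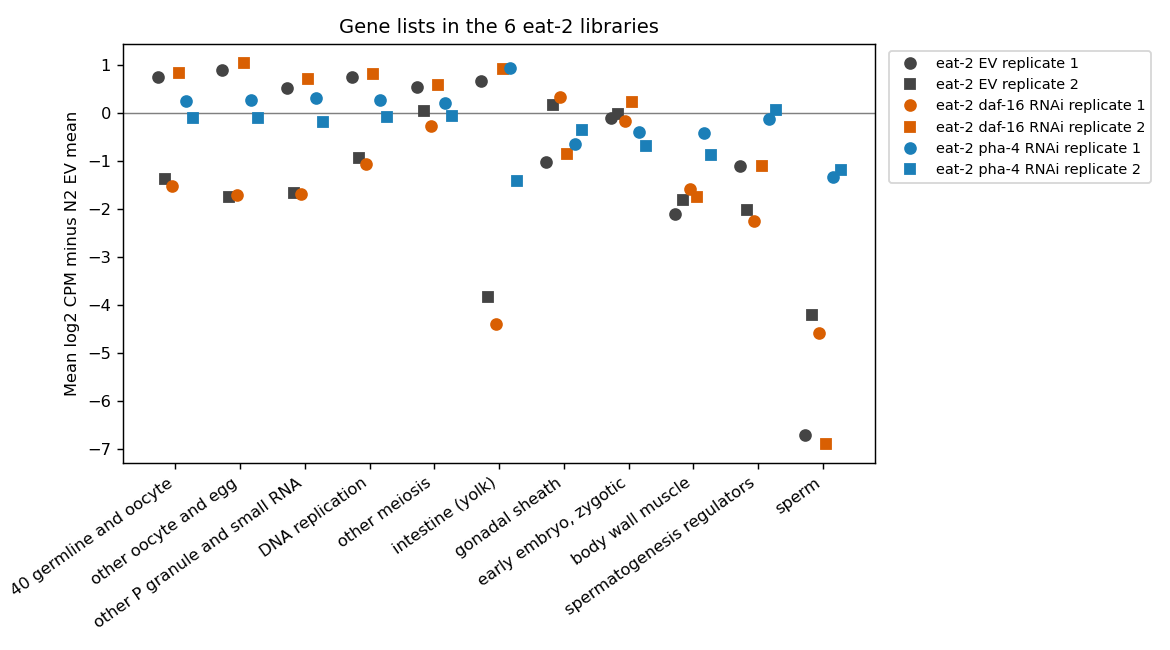
Mean log2 CPM of 11 gene lists in the 6 eat-2 libraries, as the difference from the mean of the 3 N2 libraries on EV (vertical axis), with a symbol and colour for each library. The lists of oocyte, P granule, DNA replication and yolk genes were low in EV replicate 2 and daf-16 RNAi replicate 1. Sheath markers and major sperm protein genes were higher there than in the other replicate. The spermatogenesis regulators were instead lower in daf-16 RNAi replicate 1 than in replicate 2.

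Across all 33 libraries, most of the variation in the 40 genes lay within groups. Differences between libraries of the same group made up 59.3% of a gene's variation in log2 CPM (share of the sum of squares, median over the 40 genes), and over 50% in 30 of the 40. The median over all 17354 genes tested was 46.2%, and 44.9% over the 5091 genes whose mean was at least that of the lowest of the 40. The median range between the lowest and highest library was 2.90 on the log2 scale for the 40 genes, against 2.78 over all genes tested and 1.81 over those 5091. A within-group share over 50% was found in 7124 of the 17354 genes tested and in 2010 of the 5091. With 33 libraries in 12 groups, a share over 50% is also expected where groups do not differ. These shares are descriptions, with no test.

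**Figure D3:**
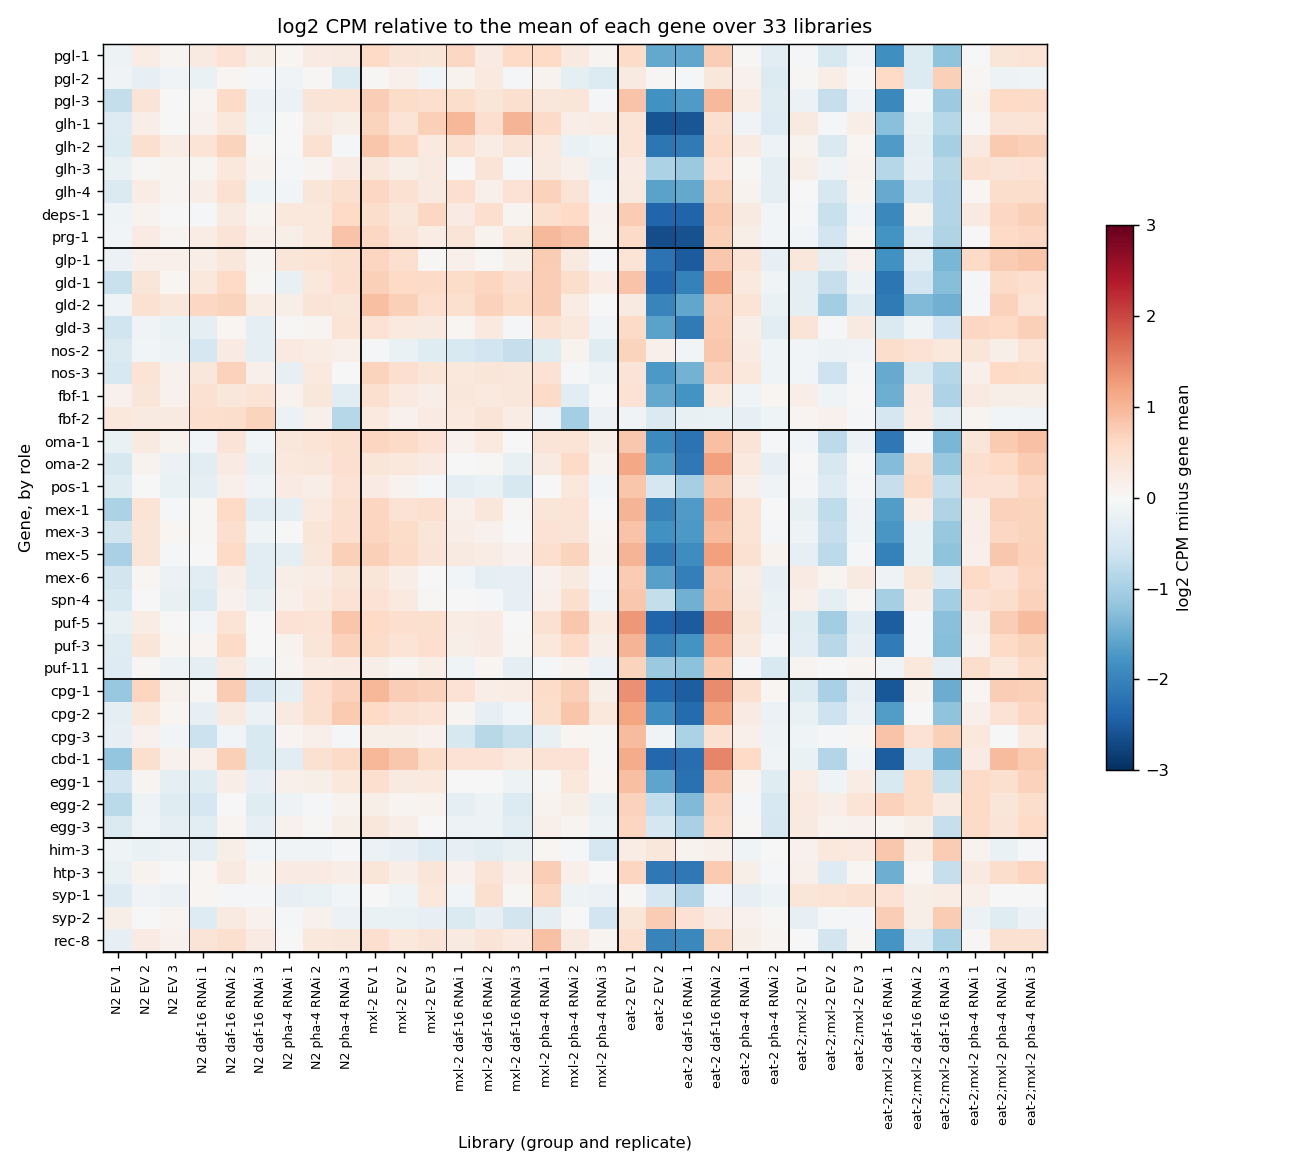
Level of each of the 40 genes (rows, in 5 blocks by role) in the 33 libraries (columns, by group) as log2 CPM minus the gene's own mean, red above and blue below. The columns of eat-2 EV replicate 2 and eat-2 daf-16 RNAi replicate 1 are blue in most rows, while him-3, syp-2, nos-2 and pgl-2 are not.

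The P granule and piRNA genes were low in the same eat-2 libraries, with pgl-2 as an exception. Their highest level per length was that of pgl-1, which encodes a core protein of P granules, at a mean of 191.8 TPM over 33 libraries. Its CPM was 399, 512 and 469 in N2 on EV, 644 and 153 in eat-2 on EV, 149.8 and 736 in eat-2 on daf-16 RNAi, and 124, 331 and 193 in the double mutant on daf-16 RNAi. Its lowest library was thus double mutant daf-16 RNAi replicate 1. The widest range was that of prg-1, which encodes the Piwi protein that binds piRNAs. The CPM of prg-1 was 263, 329 and 295 in N2 on EV, 411 and 43.8 in eat-2 on EV, and 45.5 and 458 in eat-2 on daf-16 RNAi, a 12.4-fold range over all libraries. The helicase gene glh-1, related to Vasa, spanned a 12.2-fold range, from 59.0 CPM in eat-2 EV replicate 2 to 721 CPM in mxl-2 daf-16 RNAi replicate 3. In contrast pgl-2 spanned 2.21-fold, from 42.9 to 94.9 CPM, and had its highest value in double mutant daf-16 RNAi replicate 3, where pgl-1 was at 193 CPM. Exons of other genes cover 6.93% of pgl-2 and 5.33% of deps-1, a P granule assembly gene, so that some of their reads may belong to neighbours. The helicases glh-1 and glh-2 are close copies, whose reads the counting may have split.

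Among the regulators of stem cells and of the entry into meiosis, gld-1 had both the highest level and the widest range. It encodes an RNA-binding repressor of translation that promotes meiosis, and its mean was 366.0 TPM. Its CPM was 465, 946 and 764 in N2 on EV, 1346 and 144 in eat-2 on EV, 182 and 1609 in eat-2 on daf-16 RNAi, and 901 and 686 in eat-2 on pha-4 RNAi. The 9.35-fold gap within eat-2 on EV exceeded the gap between any 2 libraries of N2. The Notch receptor gene glp-1, whose signal keeps stem cells dividing, was 6.24-fold higher in eat-2 EV replicate 1 than in replicate 2 and 9.80-fold higher in eat-2 daf-16 RNAi replicate 2 than in replicate 1. The cytoplasmic poly(A) polymerase gene gld-2 and its partner gld-3 followed the same order, with gaps of 4.75-fold and 4.52-fold on EV. The Pumilio-family repressor genes fbf-1 and fbf-2 are close copies that differed here: fbf-1 had gaps of 3.92-fold and 4.31-fold in the 2 groups, and fbf-2 of 1.26-fold and 1.014-fold. Reads of these copies may have been split in counting, so their difference is uncertain. The Nanos-family gene nos-2 had gaps of 1.45-fold and 1.86-fold, and exons of other genes cover 12.4% of it.

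The oocyte RNA-binding genes had larger gaps, with a median of 6.64-fold in eat-2 on EV and 7.44-fold on daf-16 RNAi. Per length, pos-1, a zinc-finger gene whose protein sets early embryonic fates, was the highest at a mean of 593.7 TPM. Its CPM was 482, 622 and 539 in N2 on EV, 1103 and 443 in eat-2 on EV and 313 and 1096 in eat-2 on daf-16 RNAi. The widest range was that of puf-5, a Pumilio-family repressor of late oogenesis, at 15.1-fold. The CPM of puf-5 was 557, 753 and 652 in N2 on EV, 1587 and 123 in eat-2 on EV, 115 and 1738 in eat-2 on daf-16 RNAi, and 117, 625 and 271 in the double mutant on daf-16 RNAi. In the groups of eat-2 on EV and on daf-16 RNAi, 1 library of puf-5 lay below and 1 above all 9 libraries of N2. The zinc-finger genes oma-1 and oma-2, needed for oocyte maturation, spanned 8.63-fold and 10.5-fold. The pairs oma-1 and oma-2, mex-5 and mex-6, and puf-3 and puf-11 are related copies, so that a share of their reads may be assigned to the partner. In eat-2 on EV the gap was 8.15-fold for puf-3 and 3.45-fold for puf-11.

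The genes of the eggshell and egg surface included the highest levels of all 40. The mean of cpg-2, a chondroitin proteoglycan of the eggshell, was 1282 TPM. Its CPM was 1662, 2501 and 2112 in N2 on EV, 4608 and 556 in eat-2 on EV, 406 and 4609 in eat-2 on daf-16 RNAi, and 634, 2006 and 878 in the double mutant on daf-16 RNAi. The related cpg-1 had the widest range of the 40 genes, 15.6-fold. Its CPM was 653, 2264 and 1558 in N2 on EV, 3724 and 284 in eat-2 on EV, 257 and 3834 in eat-2 on daf-16 RNAi, and 245, 1542 and 511 in the double mutant on daf-16 RNAi. The group of N2 on EV itself spread widely in cpg-1, with replicate 1 at 653 CPM. Another proteoglycan gene of the list, cpg-3, differed from cpg-1 in the double mutant on daf-16 RNAi, where it was at 1099, 825 and 992 CPM against 552, 593 and 620.4 in the libraries labelled EV. The oocyte surface genes egg-1 and egg-2, needed for sperm entry, are close copies and had gaps of 5.66-fold and 2.68-fold in eat-2 on EV.

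The 5 genes of meiotic chromosomes divided. The HORMA-domain axis gene htp-3 and the cohesin gene rec-8 followed the split, while the axis gene him-3 and the synaptonemal complex genes syp-1 and syp-2 did so little or not at all: the gaps of syp-1 were 1.47-fold on EV and 1.73-fold on daf-16 RNAi. The CPM of htp-3 was 87.9, 108 and 101 in N2 on EV, 157 and 22.8 in eat-2 on EV, and 22.7 and 174 in eat-2 on daf-16 RNAi. For rec-8 the values of eat-2 were 126 and 22.2 on EV, then 23.04 and 141 on daf-16 RNAi. For him-3, the highest of the 5 per length at a mean of 115.8 TPM, the values were 111, 107 and 109 CPM in N2 on EV, 141 and 154 in eat-2 on EV, 132 and 136 in eat-2 on daf-16 RNAi, and 214, 141 and 207 in the double mutant on daf-16 RNAi. The highest library of him-3 was thus the one in which pgl-1, cpg-1 and puf-3 were lowest. The genes pgl-1 and him-3 lie 189 bases apart on chromosome IV (WBcel235), pgl-1 on the minus strand at 6974441 to 6977318 and him-3 on the plus strand at 6977508 to 6978765, yet pgl-1 spanned 5.93-fold and him-3 2.499-fold. Another pair of the list, rec-8 and mex-5, lies 529 bases apart in the same arrangement on chromosome IV, and its genes spanned 7.36-fold and 10.2-fold.

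**Figure D4:**
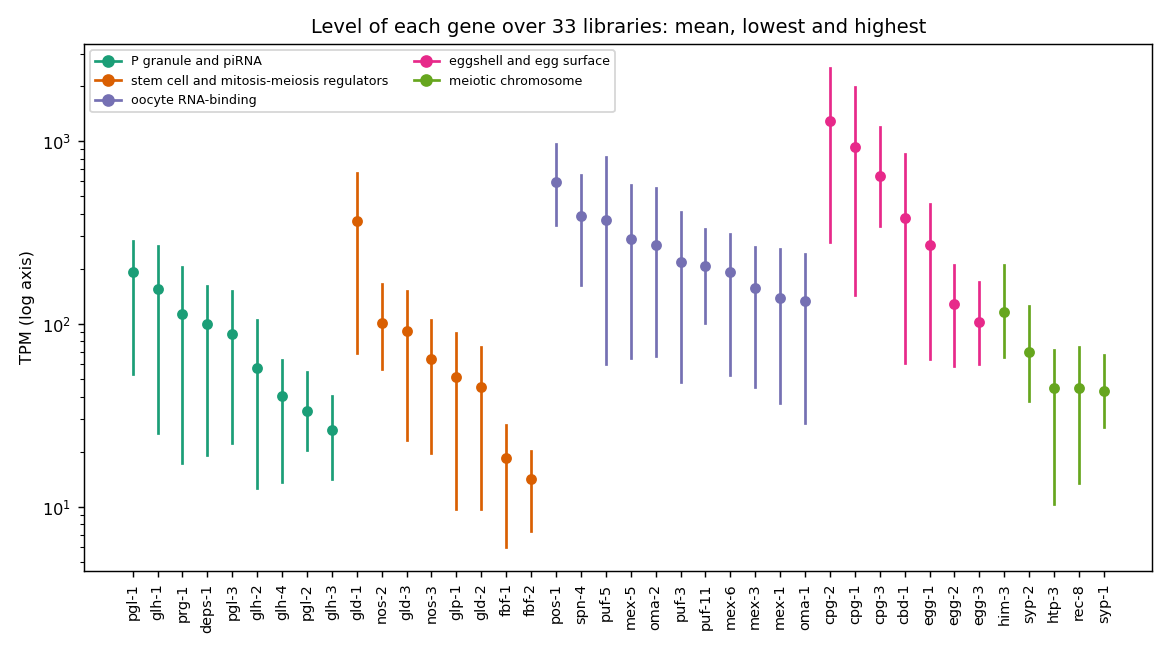
Level of each gene in TPM (vertical axis, log scale), as the mean over 33 libraries (point) and the lowest to highest library (line), coloured by role and ordered by mean within each role. Means run from 14.2 TPM for fbf-2 to 1282 TPM for cpg-2, and the shortest lines belong to syp-1, pgl-2, fbf-2, pos-1 and egg-3.

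Groups were compared with the quasi-likelihood test of edgeR over all 17354 genes that passed the filter, and a gene was called at a Benjamini-Hochberg adjusted p under 0.05. Fold changes are log2 values with their standard errors (SE). The comparisons that share a control group are not independent of each other.

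The effect of eat-2 on EV could not be read from these genes, because its direction was set by single libraries. None of the 40 was called in eat-2 against N2 on EV, where 0.789% of all genes tested were called. At an unadjusted p under 0.05 there were 4, DESeq2 called 1 and limma on TPM 0. The median log2 fold change over the 40 was 0.14, against 0.03 over all genes, and on TPM it was -0.34. Without eat-2 EV replicate 1 the median was -1.68, and without replicate 2 it was 0.91. Each of these fits leaves a single library in the group, which is assumed to vary like the other groups, and each called 0 of the 40.

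The averaged comparison of eat-2 with N2 over the 3 feeding treatments called 1 of the 40, with 14.6% of all genes called. It was fbf-2, which fell by 0.43 ± 0.14 (SE) on the log2 scale (edgeR adjusted p = 0.0454). Its CPM ranged from 24.4 to 30.6 (median 28.5) over the 6 eat-2 libraries and from 18.3 to 52.5 (median 40.2) over the 9 of N2, so that the strains overlapped through the N2 libraries on pha-4 RNAi. The call was lost by limma on TPM, at an adjusted p of 0.113, and on leaving out any library of these strains other than N2 pha-4 RNAi replicate 3 and eat-2 EV replicate 1, at adjusted p from 0.0525 to 0.158. The number of the 40 called rose without eat-2 EV replicate 1 or eat-2 daf-16 RNAi replicate 2, the libraries high in these genes. Each of these fits leaves a single library in a group, so its count is not read here. The 14.6% belongs to the full fit.

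In mxl-2 on EV, 37 of the 40 had positive log2 fold changes against N2, with a median of 0.45 against a median of 0.00 over all genes, but none was called. Only 0.0288% of all genes were called there, 0 of the 40 had an unadjusted p under 0.05, and DESeq2 and limma on TPM called 0. The largest value was that of cbd-1, a chitin-binding eggshell gene, at 0.83, and the lowest that of syp-2 at -0.30. The mean log2 CPM over the 40 was above all 3 N2 EV libraries in all 3 mxl-2 EV libraries. Markers of other cells differed between the same groups, without overlap for 3 lists (mean log2 CPM). The yolk genes were at 13.10, 12.74 and 14.13 in mxl-2 against 10.61, 12.45 and 12.10 in N2, the sheath markers at 4.28, 4.22 and 2.73 against 4.62, 4.42 and 4.44, and the early embryo markers at -0.19, -0.04 and -0.24 against 0.49, 0.85 and 0.67. The sperm genes were not alike within mxl-2 on EV, at 5.44, 4.92 and -1.26. The share of all genes without overlap between these groups is not given here. The part of these tissues in the values of the 40 genes was not tested. Averaged over the feeding treatments, mxl-2 against N2 also called 0 of the 40, with 6.75% of all genes called. In that comparison 3 had an unadjusted p under 0.05, DESeq2 called 1, limma on TPM 0, and the median was 0.15.

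The double mutant differed from N2 in 4 of the 40 genes when averaged over the feeding treatments, where 25.4% of all genes were called, a larger share than that of the 40. Of the 4, 3 were higher. The axis gene him-3 was higher by 0.37 ± 0.09 (edgeR adjusted p = 0.00395), with CPM of 106 to 214 (median 141) in 9 double mutant libraries and 101 to 137 (median 113) in 9 of N2. The egg surface gene egg-2 was higher by 0.68 ± 0.19 (adjusted p = 0.0107), and its 252 to 355 CPM (median 292) did not overlap the 126 to 238 CPM (median 197) of N2. The synaptonemal gene syp-1 was higher by 0.39 ± 0.12 (adjusted p = 0.0202), at 65.99 to 91.9 CPM (median 78.2) against 50.6 to 68.9 (median 61.8). Exons of other genes cover 16.9% of syp-1. The poly(A) polymerase gene gld-2 fell by 0.94 ± 0.25 (adjusted p = 0.00796), with 37.9 to 269 CPM (median 127) against 152 to 263 (median 214). On EV and on daf-16 RNAi, N2 and the double mutant did not overlap in gld-2. The double mutant libraries labelled pha-4 RNAi, at 158, 269 and 219 CPM, instead lay on both sides of N2 on pha-4 RNAi, at 186, 217 and 214. The median over the 40 was -0.28, against -0.05 over all genes.

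Because the average gives each feeding treatment the same weight, an exchange of EV and pha-4 RNAi within the double mutant would leave its mean the same. Restricted to the daf-16 RNAi groups, an alternative chosen after the data were seen, the comparison called 8 of the 40. There the log2 fold change of egg-2 was 0.79, larger than in the average, with an adjusted p of 0.0918, and that of syp-1 was 0.30 with an adjusted p of 0.304, so that both calls were lost while both directions held. The calls of gld-2 and him-3 held there with larger log2 fold changes, -2.11 (adjusted p = 0.00248) and 0.67 (adjusted p = 0.00484). Without double mutant daf-16 RNAi replicate 2 the average called 8, and without double mutant pha-4 RNAi replicate 1 the adjusted p of syp-1 was 0.0508. Shares of all genes called are not given here for these alternatives, so both counts of 8 stand without one.

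On EV alone, the libraries labelled as double mutant were called against N2 in 0 of the 40 genes, with 12.1% of all genes called. An unadjusted p under 0.05 was reached by 3, DESeq2 called 2, limma on TPM 3, and the smallest edgeR adjusted p was 0.0512, of syp-1. Against eat-2 on EV, 1 of the 40 was called, with 18.4% of all genes called. It was syp-2, which fell by 0.68 ± 0.20 (adjusted p = 0.0212), from 74.4 and 96.9 CPM in eat-2 to 48.5, 55.1 and 56.3. N2 on EV lay between, at 64.9, 57.4 and 60.5 CPM. The call was lost without double mutant EV replicate 1 (edgeR adjusted p = 0.0717) and without eat-2 EV replicate 2. Leaving out either eat-2 library leaves 1 in its group, and the counts of such fits are not read here. The interaction of both mutations on EV called 0 of the 40, with 1.27% of all genes called. None had an unadjusted p under 0.05, and DESeq2 and limma on TPM called 0.

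On daf-16 RNAi, the 40 genes were not called in 3 of the 4 strains. In N2, mxl-2 and eat-2 0 were called, where 0.248%, 0.127% and 0.0115% of all genes were called, and an unadjusted p under 0.05 was reached by 0, 1 and 0. DESeq2 and limma on TPM called 0 in each. Their medians were 0.15, -0.26 and 0.06. The median in eat-2 was set by single libraries: it was 1.80 without eat-2 EV replicate 1 and -1.70 without eat-2 daf-16 RNAi replicate 2.

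In the double mutant on daf-16 RNAi, 33 of the 40 had negative log2 fold changes against the libraries labelled EV, with a median of -0.46, against 0.09 over all genes. One was called, and it was higher, with 9.55% of all genes called. The gene was syp-2, which rose by 0.69 ± 0.18 (edgeR adjusted p = 0.0199), from 48.5, 55.1 and 56.3 CPM to 95.7, 64.7 and 97.2. Replicates 1 and 3, in which syp-2, him-3 and pgl-2 were high, were the ones in which most of the list was low: 33 of the 40 were higher in replicate 2 than in replicate 1. The lowest fold change was that of glp-1, at -1.11 ± 0.54 (adjusted p = 0.154). The call of syp-2 was lost with RLE factors (adjusted p = 0.0566), and on leaving out any of the 6 libraries other than daf-16 RNAi replicate 2, at adjusted p from 0.0996 to 0.175. Without double mutant daf-16 RNAi replicate 2, the comparison called 3 of the 40, and a fit to these 6 libraries alone called 9. The 9.55% belongs to the main model, and the shares of all genes called in these other fits are not given here. Markers of other cells differed between the same groups. The sperm genes were at 0.94, 1.78 and 1.35 (mean log2 CPM) on daf-16 RNAi against 4.12, 4.50 and 4.09, the sheath markers at 4.62, 4.34 and 4.59 against 3.89, 4.08 and 3.91, and the early embryo markers at 0.95, 0.64 and 1.19 against -0.19, -0.20 and -0.16. The body wall muscle markers were lower, at 6.84, 6.84 and 7.17 against 7.71, 7.78 and 7.75, and so were the spermatogenesis regulators, at 1.17 to 1.71 against 3.08 to 3.19. None of these 5 lists overlapped between the groups, while the yolk genes, at 10.86 to 11.83 against 10.02 to 10.91, did. These lists are not set against the share of all genes without overlap, which is not given here. Their part in the values of the 40 genes was not tested.

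The genes of the list were likewise not called on pha-4 RNAi. The shares of all genes called were 0.323% in N2, 0.887% in mxl-2, 1.17% in eat-2 and 1.49% between the libraries so labelled in the double mutant, and 0 of the 40 were called in each. An unadjusted p under 0.05 was reached by 2, 1, 1 and 2, and DESeq2 and limma on TPM called 0. In the double mutant 35 of the 40 had positive fold changes in the libraries labelled pha-4 RNAi, with a median of 0.55 and the highest value in puf-5 at 1.199. A fit to these 6 libraries alone called 29 of the 40. The 1.49% belongs to the main model, and the share of all genes called in that smaller fit is not given here. Of the 6 marker lists, 5 did not overlap between these groups, the exception being muscle. The share of all genes without overlap between these groups is not given here. The yolk genes were at 11.54, 12.32 and 12.01 (mean log2 CPM) in the libraries labelled pha-4 RNAi against 10.68, 10.02 and 10.91 in those labelled EV, the sheath markers at 4.38, 4.16 and 4.18 against 3.89, 4.08 and 3.91, and the early embryo markers at 0.59, 0.47 and 0.54 against -0.19, -0.20 and -0.16. Sperm genes were lower, at 1.69, 2.31 and 2.53 against 4.12, 4.50 and 4.09, and so were the spermatogenesis regulators, at 1.82 to 2.20 against 3.08 to 3.19. Their part in the values of the 40 genes was not tested. In N2 35 were positive with a median of 0.30, in mxl-2 8 were positive with a median of -0.12, and in eat-2 23 with a median of 0.02.

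**Figure D5:**
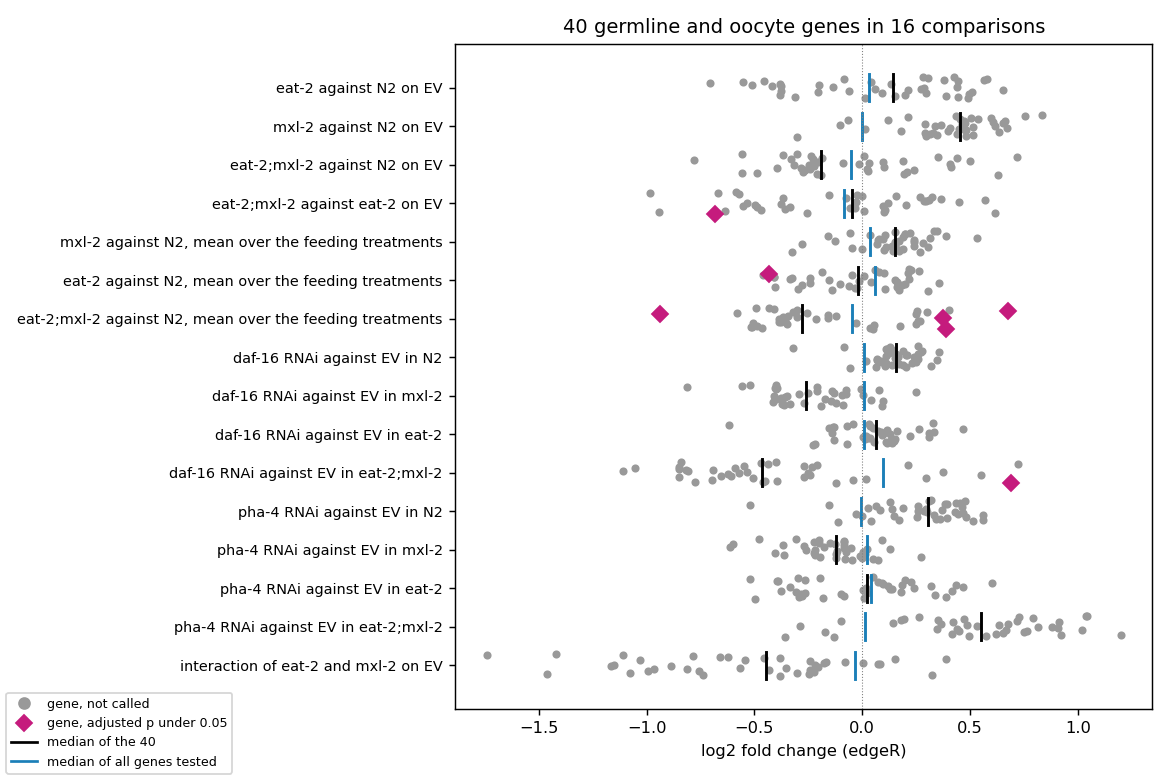
Log2 fold change of each of the 40 genes (horizontal axis) in 16 comparisons (vertical axis), with called genes as diamonds, the median of the 40 in black and the median of all genes tested in blue. Called genes are few, 1 to 4 in 4 comparisons, and belong to him-3, syp-1, syp-2, egg-2, gld-2 and fbf-2.

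Other genes of the same processes were read from lists, beside the shares of all genes called in the same comparisons. Of 20 other oocyte and egg genes, 1 was called in any comparison: mbk-2, a kinase of the change from oocyte to embryo, fell by 0.58 ± 0.21 in the double mutant against N2 averaged over treatments (edgeR adjusted p = 0.0436), where 25.4% of all genes were called. Of 15 other P granule and small RNA genes, 2 were higher in that comparison and none lower, the one with the smallest p being ekl-1, a small RNA pathway gene, at 0.56 ± 0.10 (adjusted p = 0.000389). It was also the 1 gene of this list called in the double mutant against N2 on EV, with 12.1% of all genes called.

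Of 16 DNA replication genes, 3 were higher and none lower in the average of the double mutant, led by cdc-6, a licensing factor, at 0.52 ± 0.11 (adjusted p = 0.00117), against 25.4% of all genes. In the average of mxl-2, where 6.75% of all genes were called, 2 of the 16 were lower and none higher, led by psf-2, a subunit of the GINS replication complex, at -0.50 ± 0.10 (adjusted p = 0.00685). On daf-16 RNAi in the double mutant 3 were higher, with 9.55% of all genes called, and in the double mutant against N2 on EV 1 was higher.

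Of 19 other meiosis genes, 6 were higher and none lower in the average of the double mutant, led by zhp-3, a crossover gene, at 0.53 ± 0.10 (adjusted p = 0.00039), against 25.4% of all genes. In the average of eat-2 against N2, 4 of the 19 were higher and none lower, with 14.6% of all genes called, led by spo-11, which makes meiotic breaks, at 0.57 ± 0.16 (adjusted p = 0.0234). Against eat-2 on EV, the double mutant had 4 of the 19 lower and none higher, with 18.4% of all genes called, led by lab-1, which protects cohesion in meiosis, at -0.86 ± 0.20 (adjusted p = 0.00603). In addition 1 was higher in eat-2 and 1 in the double mutant against N2 on EV, and 2 on daf-16 RNAi in the double mutant.

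The other meiosis genes split between the same eat-2 libraries and in the same order as the 40 genes, with smaller gaps than the other lists. Their mean log2 CPM was 5.96 and 5.45 on EV, then 5.14 and 5.99 on daf-16 RNAi, and the last 2 values were the lowest and the highest of all 33 libraries. For the other oocyte and egg genes the values were 8.59 and 5.95 on EV, then 5.98 and 8.74 on daf-16 RNAi. The other P granule and small RNA genes had 7.35 and 5.15 on EV, then 5.14 and 7.53 on daf-16 RNAi. The DNA replication genes, which dividing cells need, had 7.89 and 6.20 on EV, then 6.08 and 7.96 on daf-16 RNAi.

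Marker lists of other tissues differed between strains in the 3 averaged comparisons. In eat-2 against N2, 14.6% of all genes were called. There 30 of 31 sperm genes were lower, led by msp-31 at -3.91 ± 0.90 (edgeR adjusted p = 0.0111). By the mean of the list, they lay below N2 on EV and on daf-16 RNAi. On pha-4 RNAi their mean log2 CPM was 2.59 and 2.73, within the 1.85 to 4.83 of N2. Also lower were 3 of 9 tested spermatogenesis regulators and 5 of 6 muscle markers, led by the paramyosin gene unc-15 at -1.42 ± 0.23 (edgeR adjusted p = 0.00175). In the double mutant against N2, where 25.4% of all genes were called, 5 of 6 muscle markers were lower, led by the myosin gene unc-54 at -1.69 ± 0.25 (adjusted p = 2.69e-05). There 2 of 31 sperm genes, 1 of 9 spermatogenesis regulators and 1 of 7 early embryo markers were lower, shares below that of all genes. In mxl-2 against N2, where 6.75% of all genes were called, the innexin gene inx-8 was lower among the 5 sheath markers, at -0.56 ± 0.17 (adjusted p = 0.0457), and 2 of 7 early embryo markers were lower, led by pes-10 at -1.03 ± 0.27 (adjusted p = 0.0251). None of the sheath markers was called in the averages of eat-2 and of the double mutant.

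Between the double mutant and eat-2 on EV, where syp-2 was called and 18.4% of all genes were, 15 of 31 sperm genes, 5 of 9 spermatogenesis regulators and 2 of 6 muscle markers were higher in the double mutant. There 3 of 7 early embryo markers were lower, and of the 5 sheath markers 1 was higher and 1 lower. Of the 6 yolk genes 0 were called in any of the 16 comparisons. What part these tissues had in the values of the 40 genes was not tested.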

How the data were processed

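Per the submitters' processing notes, FastQC, Trimmomatic, STAR 2.4.2a, RSEM 1.2.23 and featureCounts 1.4.6-p5 were used with genome build WBcel235; whether counting used the strand of the reads is not given in the sources used here. The authors deposited a table of whole-number read counts per gene, and a second table of TPM values that they scaled before leaving out low genes. Both hold 17907 genes and 33 libraries. Columns were assigned to samples by name.

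From the counts, edgeR 4.0.16 in R 4.3.3 fitted 1 model to all 33 libraries with a mean for each of 12 groups, TMM factors and the filterByExpr filter (17354 genes kept, the 553 left out holding 0.00501% of counts). Log2 CPM used a prior count of 2, limma 3.58.1 tested log2(TPM + 1), and DESeq2 1.42.0 was an alternative. The edgeR, DESeq2 and limma steps were tested on simulated data. Over 30 pairs of replicates the chi-square per degree of freedom was 9.13 to 575, so all 33 were counted as separate libraries.

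The 40 genes and all lists were chosen with earlier results of these data known. Named genes are, per role, those with the highest mean TPM and the widest log2 CPM range, the called members, the targeted genes, and the smallest-p called gene of other lists; other members named were chosen after their values were seen. Early embryo markers med-1, med-2 and hlh-27 were not used here. Coordinates and exon overlaps come from the Ensembl annotation of WBcel235. No sequences are shown, as no sequence reference was used here.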

Additional observations from a re-analysis of the deposited data

Results flagged for a closer look

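Some of the 40 genes responded in opposite directions in different strains, with no overlap between the RNAi and EV libraries of either strain. The rule was met by 2 of the 40 (5%) on daf-16 RNAi, against 9.39% of all 17354 genes tested. On pha-4 RNAi it was met by 6 of the 40 (15%), against 26.4% of all genes. Both shares of the 40 were below those of all genes, so the pattern was not particular to them. The differences between strains were then tested in the edgeR model as contrasts, a choice made after the data were seen, over 12 pairs of strains and treatments, each adjusted over all genes.

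On daf-16 RNAi, cpg-3 had a log2 fold change of 0.72 in the double mutant and of -0.81 in mxl-2, and the difference of 1.53 ± 0.38 (SE) had an edgeR adjusted p of 0.0193. For nos-2 the values were 0.55 and -0.38 (adjusted p of the difference = 0.0558). The synaptonemal complex gene syp-2 was singled out by the test of the difference itself, which was 0.88 ± 0.25 between the double mutant and mxl-2 (adjusted p = 0.0380). The comparison of these strains called 2 of the 40 and 1210 of the 17354 genes tested, and the other 5 pairs on daf-16 RNAi called 0 of the 40. These values rest on the double mutant libraries labelled EV, whose pha-4 transcript was below that of the libraries labelled pha-4 RNAi.

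On pha-4 RNAi, 0 of the 40 passed the test of the difference in any of 6 pairs of strains, with an unadjusted p under 0.05 in at most 1 per pair. The log2 fold changes in the double mutant and in mxl-2 were 0.75 and -0.36 for pgl-3, 0.68 and -0.61 for glh-2, 0.88 and -0.26 for mex-1, and 1.04 and -0.48 for cbd-1. For oma-1 they were 1.02 in the double mutant, 0.33 in N2 and -0.23 in mxl-2. For him-3 they were 0.081 in N2, -0.34 in eat-2 and -0.29 in the double mutant. In the double mutant, the direction depends on the labels, and the order of the pha-4 transcript ran against them. Whether the labels were exchanged was not tested.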

How the results depend on the processing

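The alternatives were run for the 7 log2 fold changes of members called in a comparison, which kept their direction in each: 112 of their values stayed past the threshold and 32 did not. Members that were not called were followed only through the counts and medians. Shares of all genes called in the alternative fits of this section are not given here. The counts below are therefore not read as results about the 40 genes. DESeq2 called 1 of the 40 in eat-2 against N2 on EV, 2 in the double mutant against N2 on EV, 2 against eat-2 on EV, 1 in the average of mxl-2, 2 in that of eat-2 and 3 on daf-16 RNAi in the double mutant. RLE factors gave 2 in the double mutant against N2 on EV, 2 against eat-2 and 0 on daf-16 RNAi in the double mutant, and no filter on low counts gave 1 in the double mutant against N2 on EV, 0 in the average of eat-2 and 0 on daf-16 RNAi in the double mutant. By limma on TPM the counts were 3 in the double mutant on EV, 0 in the average of eat-2, 7 in that of the double mutant and 2 on daf-16 RNAi in the double mutant. Fits to only the groups compared called 7 in the double mutant against N2 on EV, 0 against eat-2, 3, 0 and 9 in the averages of mxl-2, eat-2 and the double mutant, 9 on daf-16 RNAi and 29 on pha-4 RNAi in the double mutant. The daf-16 RNAi groups alone gave 8 in the average of the double mutant. Leaving out each library in turn gave 0 to 9 in the double mutant against eat-2 on EV, 0 to 1 in the average of mxl-2, 0 to 17 in that of eat-2, 3 to 8 in that of the double mutant and 0 to 3 on daf-16 RNAi in the double mutant. The ranges against eat-2 on EV and in the average of eat-2 include fits without an eat-2 library. Each such fit leaves 1 library in a group, so its count is not read here. The cause of the changes in these counts was not tested. On TPM the median of all genes moved to 0.12 in the double mutant against N2 on EV, where the median of the 40 was 0.10 (-0.19 on counts), to 0.18 against eat-2 (0.46 for the 40, -0.05 on counts) and to 0.23 in the interaction (0.03 for the 40, -0.45 on counts).

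Replicate numbers did not pair libraries: of 28 pairs of groups with 3 shared numbers, 1 had every correlation of deviations over 0.1, and over all 42 pairs of groups r ran from -0.921 to 0.751. With the replicate block, 0 of the 40 were called in the average of eat-2. In eat-2 on EV and on daf-16 RNAi (r = -0.921), fits to the 4 libraries with the numbers as given and crossed, chosen after the data were seen, called 0 and 180 of all genes and 0 of the 40 in both. All 40 had at least 335 counts in every library, so that groups of 2 or 3 libraries limited the precision more than depth.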
